A study of Mus musculus with 9 samples.

Results

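The genes described are 42 genes of the cell cycle and of DNA replication, chosen by symbol as a list and measured by RNA sequencing in the duodenum of the mouse. All 42 were found among the 48709 genes of the count table, and all 42 summed to more than 100 reads in the 9 libraries together, as did 15002 genes, which were the genes tested. The mice were 10-week-old C57BL/6 J males that received, by mouth and for 6 h, vehicle, calcitriol (1,25D3, the hormonal form of vitamin D), or calcitriol and ZK (ZK168281, an antagonist of the vitamin D receptor, itself made from the 1,25D3 structure with a carboxylic ester). The agents were dissolved in sunflower oil, all mice were of 1 strain and sex, and each treatment label is carried by 3 libraries numbered 1, 2 and 3. The libraries were made from whole duodenum, so every level is a mean over epithelium, glands, immune cells and muscle.

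In the duodenum, most dividing cells lie in the crypts, where stem cells and their daughters replace the villus epithelium, and others lie in lymphoid tissue. Cells license replication origins in G1 phase by loading the Mcm helicase, fire them in S phase when cyclin-dependent kinases become active, and separate the copied chromosomes in mitosis. Transcripts of replication genes are driven mainly by E2F factors, and those of mitotic genes mainly by complexes that hold *Mybl2* or *Foxm1* and that act through CCAAT boxes and a short element called CHR. In bulk tissue, fewer dividing cells and less of a transcript per dividing cell cannot be told apart.

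These 2 promoter types were visible in the RefSeq promoter sequences (build GRCm38.p6, the mm10 assembly), of which 4 are shown, of members that the results turn on, as examples of each type. Each is given as the 250 bases before the start of the gene in RefSeq, 5′ to 3′ on the strand of the gene, with motifs in capitals. They are *Plk1* at chr7:122159185-122159434 on the plus strand, *Ccnb2* at chr9:70421555-70421804 on the minus strand, *Mki67* at chr7:135716380-135716629 on the minus strand and *Cdc6* at chr11:98907901-98908150 on the plus strand. For *Cdc6* the RefSeq start lies 350 bases downstream of the start of the gene in GENCODE, so that its stretch lies within the GENCODE gene.
Plk1: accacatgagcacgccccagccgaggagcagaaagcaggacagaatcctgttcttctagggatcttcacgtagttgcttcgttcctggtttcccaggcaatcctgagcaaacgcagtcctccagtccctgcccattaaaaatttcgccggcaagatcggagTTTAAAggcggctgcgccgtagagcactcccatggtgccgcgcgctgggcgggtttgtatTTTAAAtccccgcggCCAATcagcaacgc
Ccnb2: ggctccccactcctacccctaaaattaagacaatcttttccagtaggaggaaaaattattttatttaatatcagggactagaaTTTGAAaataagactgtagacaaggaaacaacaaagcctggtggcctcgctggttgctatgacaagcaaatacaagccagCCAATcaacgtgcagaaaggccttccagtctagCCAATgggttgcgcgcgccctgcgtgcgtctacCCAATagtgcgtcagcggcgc
Mki67: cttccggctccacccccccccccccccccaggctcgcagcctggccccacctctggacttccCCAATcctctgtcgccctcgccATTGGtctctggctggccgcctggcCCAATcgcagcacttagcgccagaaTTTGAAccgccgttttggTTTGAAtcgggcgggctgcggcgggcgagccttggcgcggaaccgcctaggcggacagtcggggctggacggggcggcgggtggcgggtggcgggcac
Cdc6: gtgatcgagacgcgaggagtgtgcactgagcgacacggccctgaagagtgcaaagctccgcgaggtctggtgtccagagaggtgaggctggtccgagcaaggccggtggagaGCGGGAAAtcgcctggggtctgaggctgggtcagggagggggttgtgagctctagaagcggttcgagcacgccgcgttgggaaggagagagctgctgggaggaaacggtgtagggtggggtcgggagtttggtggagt
The capitals mark CCAAT, the CHR element (TTTGAA or TTTAAA) and E2F sites (TTTGGCGC, TTTCCCGC or TTCCCGCC), each searched on both strands, so that a site on the other strand reads as its reverse complement, such as ATTGG or GCGGGAAA. *Plk1* had 1 CCAAT and 2 CHR elements, *Ccnb2* had 3 CCAAT and 1 CHR element, *Mki67* had 3 CCAAT and 2 CHR elements, and *Cdc6* had 1 E2F site and neither of the others. TTTAAA is its own reverse complement, and the E2F letters can overlap one another. Of the 42 members, 33 had a promoter in the table, and these were searched over 300 bases (250 before to 50 after the start), in the first promoter listed for a gene. A CHR element was found in 57.6% of the 33 members, against 27.8% of the promoters of all 27025 genes listed. CCAAT was found in 69.7% of the members and in 37.9% of all promoters, and an E2F site in 24.2% of the members and in 3.31% of all. Among the genes of mitosis, 7 of 8 promoters held CHR and 0 of 8 held an E2F site, whereas 6 of 9 promoters of the licensing and origin genes held an E2F site. The types were not clear-cut, since CCAAT was in 7 of 8 mitosis and 7 of 9 licensing and origin promoters. CHR was in 3 of those 9, and 1 of 4 nucleotide supply promoters held an E2F site. A match of these letters is a description of the sequence only.

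The label check has to precede the comparisons. *Cyp24a1*, whose enzyme breaks down 1,25D3 and whose transcription the vitamin D receptor drives, had levels of 6425 to 7633 TMM CPM in the 3 libraries numbered 2 and at 2.47 to 9.13 in the other 6, whatever the treatment on the label. TMM CPM is the count of a gene scaled to a common library size (CPM) after the TMM adjustment of edgeR. The treatment labels are thus contradicted, libraries are called by their labels throughout, and every direction between treatments rests on those labels. The duodenal enterocyte genes *Apoa4* and *Lct* were present in every library, at 9201 to 19500 and at 744 to 2062 TMM CPM. Total counts were 22561400 to 41207455 per library, and the 42 members together held 23044 to 56960 of them. Libraries with the same number mostly resembled each other more, since chi-square averaged over genes was 1.83 to 172 (median 5.57) for pairs of the same number and 1.99 to 383 (median 264.5) for pairs of the same treatment label. The libraries labelled calcitriol 3 and calcitriol 1 were the closest of the pairs with the same treatment label, and calcitriol 3 stood apart from vehicle 3 and calcitriol and ZK 3. Comparisons of number 3 are therefore given with and without calcitriol 3. That library was singled out from these same data. Without it number 3 holds only vehicle 3 and calcitriol and ZK 3, a close pair with a chi-square of 4.91 per gene. Counts and p-values without calcitriol 3 therefore depend on that choice and are a description only.

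Cell cycle transcripts were detected in every library, and the sums of the 42 members ran from 991 to 1254 TMM CPM. The 42 members summed to 1113 TMM CPM in vehicle 1, to 1125 in calcitriol 1 and to 1118 in calcitriol and ZK 1. They summed to 1003, 1037 and 991 in the libraries numbered 2, in the same order. They summed to 1238, 1125 and 1254 in vehicle 3, calcitriol 3 and calcitriol and ZK 3. Under TMM scaling the libraries numbered 2 were thus the lowest and vehicle 3 and calcitriol and ZK 3 the highest. Scaled by total counts, the sums were 1010, 1028 and 1010 CPM in number 1 and 1036, 1098 and 1020 in number 2. In number 3 they were 1409, 1021 and 1430, each in the same order of labels. Vehicle 3 and calcitriol and ZK 3 were again the highest, but the libraries numbered 2 were no longer the lowest. The inhibitor *Cdkn1a* alone held 176 to 221 TMM CPM of each sum. The spread of single members over the 9 libraries was small, since the highest level was 1.07-fold the lowest for *Mcm6* and 2.21-fold for *Foxm1*, with a median of 1.51-fold over the members. The highest level of a member was in vehicle 3 for 17 members and in calcitriol and ZK 3 for 9, and the lowest was in a library numbered 2 for 28, as the heat map of all members shows. These counts rest on TMM scaling and were made for the members alone. Without the share over all genes they do not set the members apart.

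**Figure D1:**
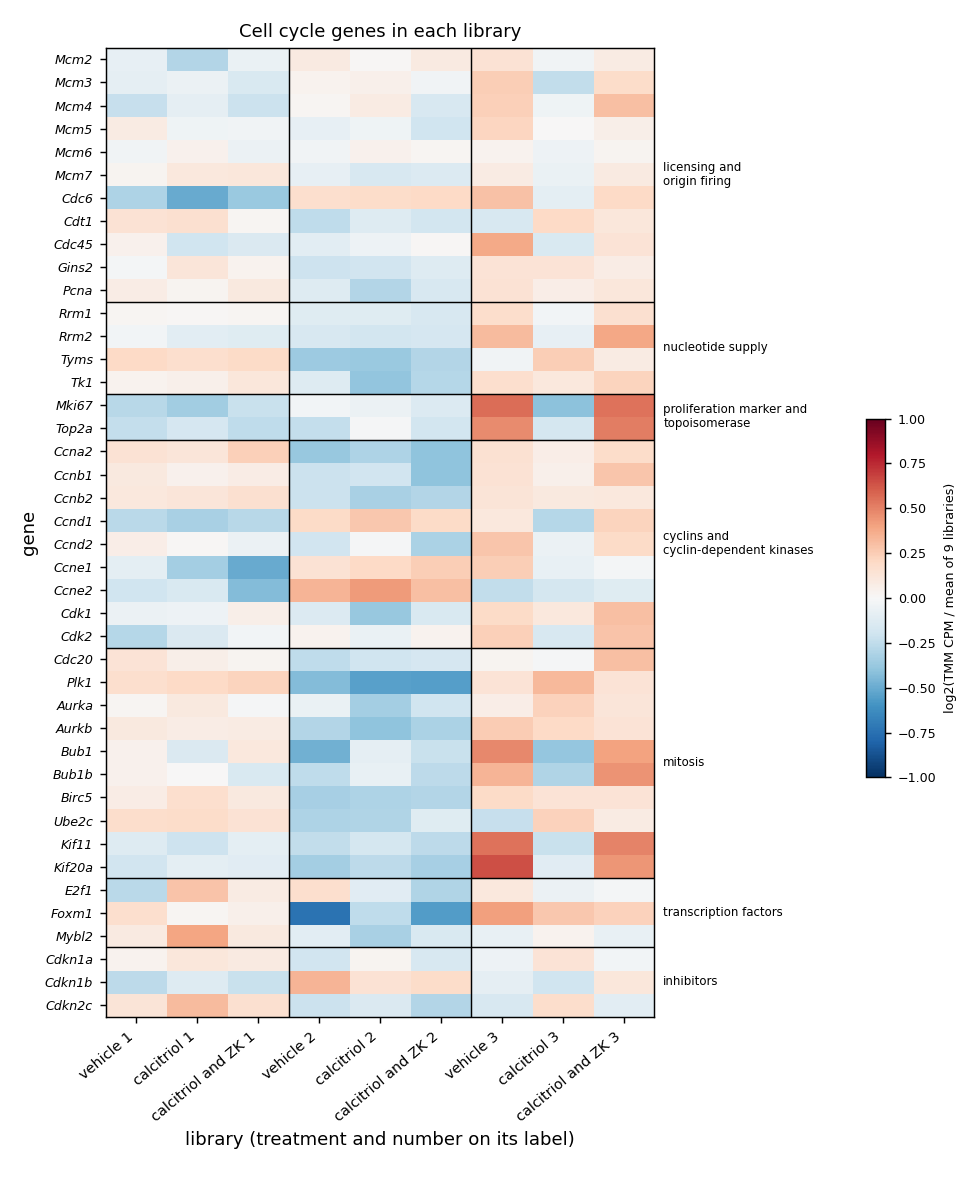
Level of each of the 42 genes (rows, by role) in each of the 9 libraries (columns), as the log2 of its TMM CPM over its mean of the 9 libraries; red is above the mean and blue below it. *Plk1* and *Foxm1* are blue in the libraries numbered 2, and *Mki67*, *Top2a*, *Kif11* and *Kif20a* are red in vehicle 3 and calcitriol and ZK 3 but not in calcitriol 3.

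Per kilobase of exon, *Cdkn1a* was the highest member at a mean of 56.5 TMM CPM per kb over the 9 libraries, followed by *Pcna* at 16.7, *Ccnb2* at 15.3, *Ube2c* at 13.0 and *Mcm6* at 12.0. *Cdc6* was the lowest at 0.651 TMM CPM per kb, followed by *Mybl2* at 1.09 and *E2f1* at 1.11. At the low end the counts still set the precision, with 63 to 177 reads of *Cdc6* and 68 to 157 reads of *E2f1* per library.

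The study compared the treatments, and by treatment label no member passed the test. In calcitriol against vehicle, calcitriol and ZK against vehicle, and calcitriol and ZK against calcitriol, 0 of 42 members were called with edgeR's quasi-likelihood test, where a call is an adjusted p under 0.05 over all genes with a log2 fold change above 0.58 or below -0.58. The share of all genes called was 0% in each of the 3 comparisons as well. At an unadjusted p under 0.05 there were 0 members in each, against 0.9%, 0.16% and 0.98% of all genes, and DESeq2 and limma voom also called 0 members. The median log2 fold change of the members was -0.07, -0.01 and 0.05, beside -0.01, 0.00 and 0.01 over all genes tested, and these 3 comparisons share libraries. The groups overlapped for every member except *Cdk2*, whose levels were 8.08, 8.53 and 8.01 TMM CPM with the label calcitriol and 8.77, 9.17 and 10.9 with the label calcitriol and ZK, with a log2 difference of 0.23 ± 0.16 (SE; edgeR adjusted p = 1). Groups that do not overlap were found for 4.39% of all genes in that comparison, and for 3.96% and 1.79% in the other two.

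The intervals show what such groups could have hidden. For *Mki67*, the antigen that coats mitotic chromosomes and serves as the usual marker of dividing cells, vehicle 1, 2 and 3 held 38.5, 45.8 and 69.0 TMM CPM. They were 36.9, 44.8 and 35.2 in those labelled calcitriol, and 40.2, 42.7 and 68.2 in those labelled calcitriol and ZK. The highest libraries labelled vehicle and calcitriol and ZK were thus those numbered 3, and the groups overlapped. The log2 difference of calcitriol from vehicle was -0.39 with a 95% interval of -0.995 to 0.211 (edgeR adjusted p = 0.9997). For *Cdkn1a*, an inhibitor of cyclin-dependent kinases and a target of p53, the log2 difference of calcitriol from vehicle was 0.16 with an interval of -0.12 to 0.44. Over the 42 members the intervals of the 3 treatment comparisons were 0.40 to 1.42 wide on the log2 scale. Their width is not the limit of the call, which is adjusted over all genes. These intervals come from fits that left the number on the label out, so they hold the spread between numbers. Between vehicle and calcitriol and ZK, same-numbered libraries deviated together from their treatment means (r 0.892 to 0.948). For that comparison the widths do not use the pairing and may overstate what was hidden. In simulated counts for calcitriol against vehicle, 1 of 67 genes changed 1.5-fold was called, and 19 of 67 changed 2-fold. The simulated libraries varied independently, whereas real libraries of the same number mostly resembled each other, so recovery in the real libraries was not measured. Under the simulated setting, 0 calls leave room for differences of those sizes.

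By the number on the label, members differed. The number is not said to mark a litter, day or batch, so p-values measure only the spread between the 3 libraries of a number, in mice that the labels do not describe further. In number 2 against number 1, 4 of 42 members (9.52%) were called, 2 higher and 2 lower, where 20.4% of all genes tested were called (12.2% higher and 8.25% lower). At an adjusted p under 0.05 with no minimum fold, 21 members (50%) passed, 5 higher and 16 lower, beside 38.3% of all genes (19.6% higher and 18.7% lower). The levels did not overlap for 32 members, 8 higher and 24 lower, beside 61.8% of all genes (31.8% higher and 30% lower). The median log2 fold change was -0.18 over the members and 0.03 over all genes. Scaling by total counts in place of TMM raised the median of all genes by 0.20 on the log2 scale, and although the 5 and 16 members kept their sign under it, 4 of the 16, namely *Mcm7*, *Pcna*, *Cdc20* and *Cdt1*, then differed by less than 0.1. Under that scaling 5 of the 21, namely *Cdc6*, *Ccne2*, *Ccnd1*, *Ccne1* and *Cdkn1b*, stood above 0.58 and 0 stood below -0.58, with *Plk1* at -0.51 and *Foxm1* at -0.39, and over all members 13 above and 29 below became 22 above and 20 below. Without calcitriol and ZK 2, 2 members were called, and with the libraries labelled vehicle and calcitriol and ZK of a number summed and counted as 1, since these were the most alike, 1 was called and 5 passed the adjusted p.

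Of the 10 genes of mitosis, 5 were lower in number 2 than in number 1 at an adjusted p under 0.05, 0 were higher and 5 did not pass. Their summed level was 191 to 194 TMM CPM in the libraries numbered 1, 150 to 154 in those numbered 2 and 195 to 216 in those numbered 3. The sums in the libraries numbered 2 lay below all the others, and the log2 ratio of the means of number 2 and number 1, -0.35, was -0.15 under scaling by total counts. *Plk1*, the kinase that drives entry into and exit from mitosis, was at 20.3, 20.7 and 21.1 TMM CPM in vehicle 1, calcitriol 1 and calcitriol and ZK 1, and at 13.4, 12.4 and 12.3 in the same order in number 2. It was at 19.8, 22.55 and 19.8 in number 3, so that the 3 libraries numbered 2 lay below the other 6. The log2 fold change of number 2 against number 1 was -0.71 ± 0.08 (SE, edgeR adjusted p = 0.0001615), which is 1.63-fold lower.
*Birc5* and *Aurkb*, members of the chromosomal passenger complex that corrects the attachment of chromosomes to the spindle, were lower by -0.43 ± 0.06 (edgeR adjusted p = 0.0006733) and -0.42 ± 0.07 (0.00172). *Birc5* was at 35.2, 37.4 and 35.7 TMM CPM in number 1, at 26.6, 26.9 and 27.2 in number 2 and at 38.1, 36.7 and 36.7 in number 3. Again the libraries numbered 2 lay below all others. *Ube2c*, the ubiquitin-conjugating enzyme of the anaphase-promoting complex, was at 38.2, 38.4 and 37.3 in number 1, at 27.3, 27.4 and 31.1 in number 2 and at 28.7, 39.6 and 35.8 in number 3. The level in vehicle 3 thus lay within the range of number 2, and the log2 fold change of number 2 against number 1 was -0.41 ± 0.11 (edgeR adjusted p = 0.01722). *Cdc20*, an activator of that complex, was 1.22-fold lower (edgeR adjusted p = 0.03497). The checkpoint kinases *Bub1* and *Bub1b*, the spindle motors *Kif11* and *Kif20a*, and *Aurka*, the kinase of the spindle poles, had log2 differences of -0.25 to -0.08 and did not pass.

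**Figure D2:**
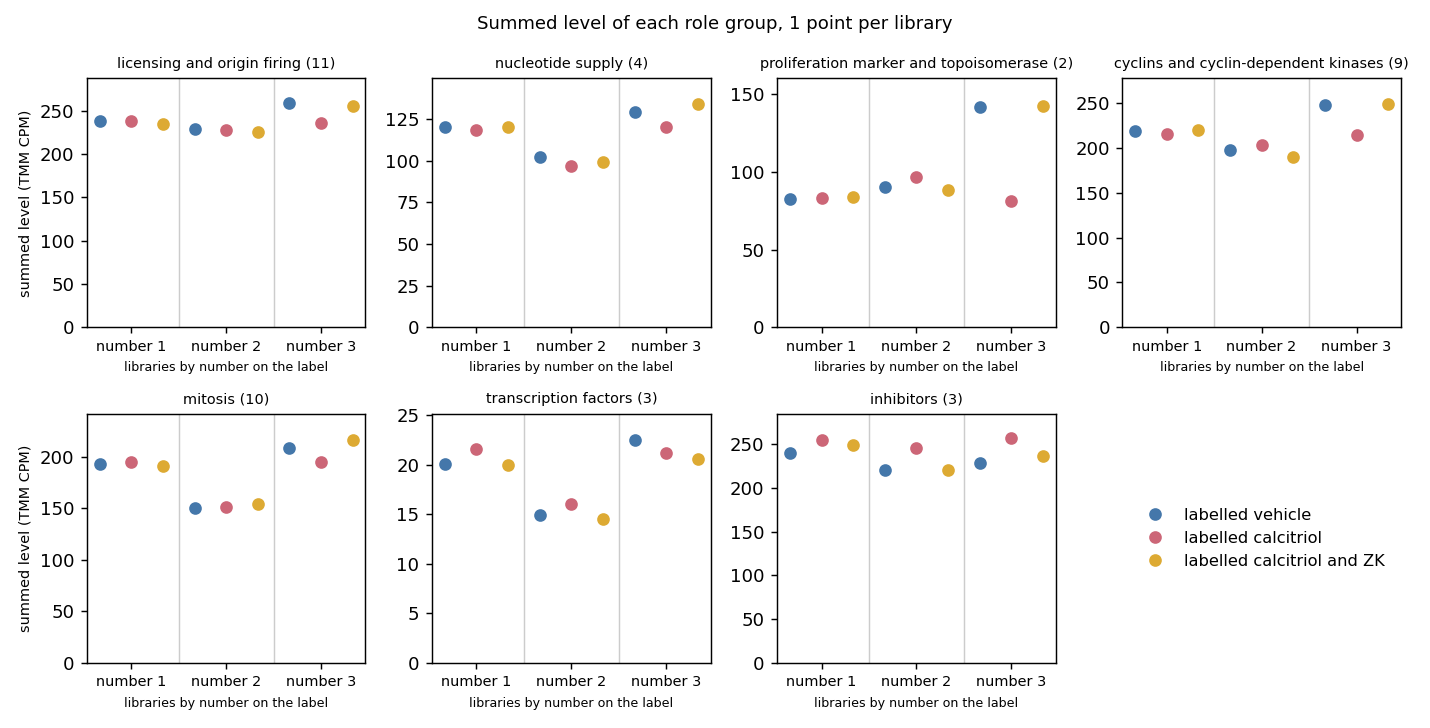
Summed level (TMM CPM, vertical axis from 0) of the genes of each of the 7 role groups, 1 point per library, with libraries ordered by the number on the label and coloured by treatment label; the number of genes is in brackets. The sum of the mitosis genes is 150 to 154 in the libraries numbered 2 and at least 191 elsewhere, and the pair *Mki67* and *Top2a* is at 142 and 143 in vehicle 3 and calcitriol and ZK 3 and at 81.5 to 96.7 elsewhere.

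The 3 transcription factors had few reads. *Foxm1*, which drives genes of G2 phase and mitosis, was at 11.8, 10.6 and 10.9 TMM CPM in number 1, at 6.29, 8.80 and 7.10 in number 2 and at 13.9, 12.6 and 12.3 in number 3. The libraries numbered 2 lay below the other 6, and the log2 fold change of number 2 against number 1 was -0.58 ± 0.13 (SE, edgeR adjusted p = 0.00579). That value stood just past the minimum fold of the call, and in 12 of 20 alternative settings *Foxm1* was no longer called, for example at -0.57 without a filter on low counts and at -0.48 without vehicle 2. *Mybl2*, which binds the same genes earlier in the cycle, was at 5.396, 6.65 and 5.43 in number 1, at 4.72, 4.04 and 4.55 in number 2 and at 4.81, 5.17 and 4.80 in number 3. Its log2 fold change was -0.40 ± 0.12 (edgeR adjusted p = 0.02716), and its levels in number 3 lay between the others. *E2f1*, the E2F factor of S phase entry, ranged from 2.85 to 4.28 TMM CPM with overlapping numbers and a log2 difference of -0.13 ± 0.17 (edgeR adjusted p = 0.5699).

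Among cyclins, *Ccnd1*, *Ccne1* and *Ccne2* were higher and *Ccna2*, *Ccnb1* and *Ccnb2* lower in the libraries numbered 2 than in those numbered 1. *Ccne2*, which activates *Cdk2* at the entry into S phase, was at 4.41, 4.57 and 3.76 TMM CPM in number 1, at 6.42, 6.81 and 6.25 in number 2 and at 4.28, 4.49 and 4.67 in number 3. The libraries numbered 2 lay above the other 6, and the log2 fold change against number 1 was 0.61 ± 0.11 (SE, edgeR adjusted p = 0.002393). Its partner gene *Ccne1* was higher by 0.50 ± 0.14 (edgeR adjusted p = 0.01826). *Ccnd1*, the cyclin that carries mitogen signals to *Cdk4* and *Cdk6*, was at 20.1 to 20.8 in number 1 and at 28.7 to 30.3 in number 2. It was at 27.0, 20.7 and 29.3 in vehicle 3, calcitriol 3 and calcitriol and ZK 3, so that calcitriol 3 lay within the range of number 1. The log2 fold change of *Ccnd1* in number 2 against 1 was 0.51 ± 0.11 (edgeR adjusted p = 0.006793).
*Ccna2*, the cyclin of S phase and G2 phase, was at 45.3, 44.6 and 48.4 TMM CPM in number 1, at 31.6, 33.0 and 31.0 in number 2 and at 45.5, 43.0 and 46.7 in number 3. The libraries numbered 2 were the lowest, by -0.53 ± 0.07 against number 1 on the log2 scale (edgeR adjusted p = 0.0003311), which is under the minimum fold of the call. The mitotic cyclins *Ccnb1* and *Ccnb2* were lower by -0.34 ± 0.09 (edgeR adjusted p = 0.01759) and -0.40 ± 0.06 (0.001081). *Ccnd2*, the cyclin with the highest TMM CPM among the members but not per kilobase, was at 72.0, 69.5 and 66.2 in number 1, at 60.2, 68.3 and 55.4 in number 2 and at 83.7, 66.0 and 78.5 in number 3. The levels of *Ccnd2* in number 2 and number 1 overlapped (log2 difference -0.17 ± 0.10, edgeR adjusted p = 0.2125). The kinases *Cdk1* and *Cdk2* had log2 differences of -0.20 ± 0.09 and 0.15 ± 0.13 and did not pass, so that of 9 cyclin and kinase genes 3 were higher, 3 lower and 3 did not pass.

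**Figure D3:**
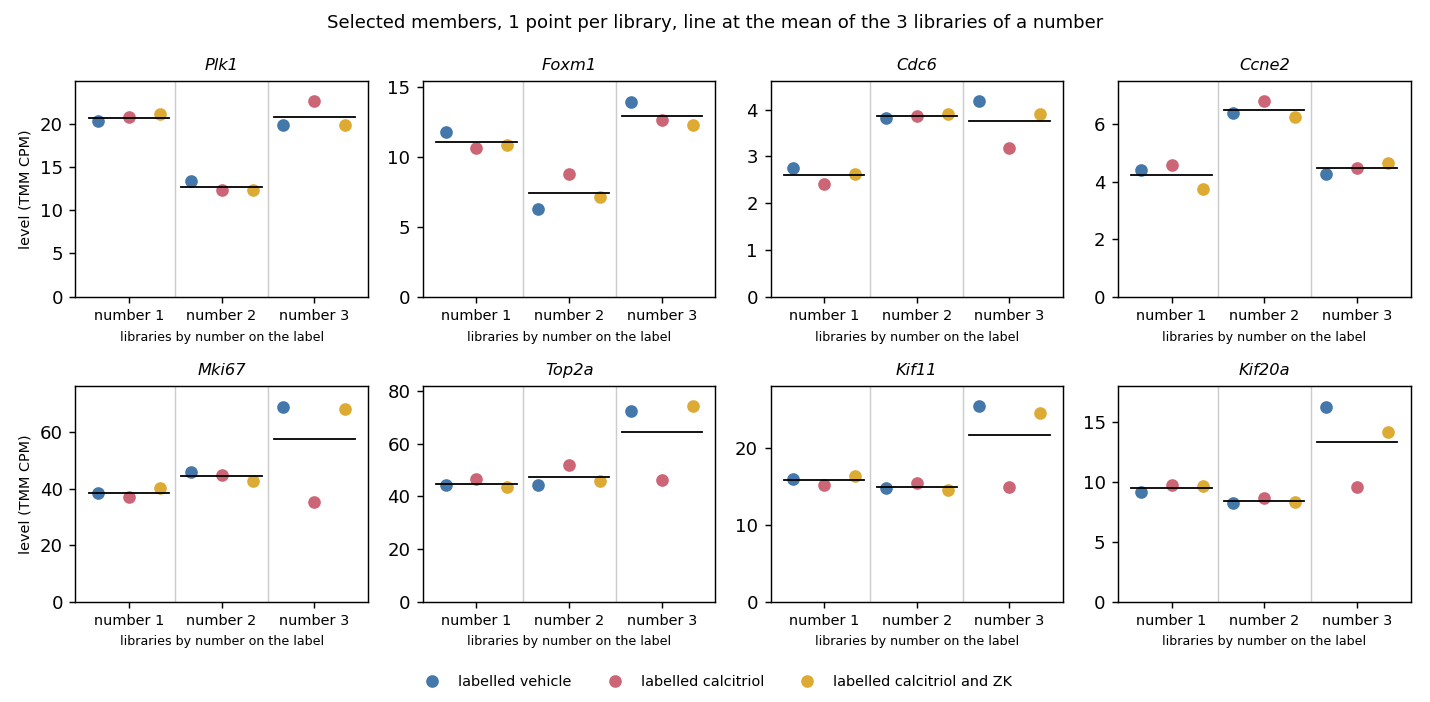
Level (TMM CPM, vertical axis from 0) of 8 members, 1 point per library coloured by treatment label, with a line at the mean of the 3 libraries of a number. *Plk1* and *Foxm1* are lowest and *Ccne2* highest in the libraries numbered 2, *Cdc6* is lowest in those numbered 1, and *Mki67*, *Top2a*, *Kif11* and *Kif20a* are highest in vehicle 3 and calcitriol and ZK 3.

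Replication genes did not follow 1 direction. *Cdc6*, which recruits the Mcm helicase to origins, was at 2.74, 2.40 and 2.63 TMM CPM in number 1, at 3.82, 3.86 and 3.91 in number 2 and at 4.18, 3.17 and 3.90 in number 3. All 6 libraries numbered 2 or 3 lay above those numbered 1, and the log2 fold change of number 2 against 1 was 0.58 ± 0.14 (SE, edgeR adjusted p = 0.008373), just past the minimum fold. It was 0.57 with DESeq2 and 0.53 without calcitriol 1, neither of them called. *Cdt1*, the partner of *Cdc6* in loading the helicase, was 1.23-fold lower (edgeR adjusted p = 0.04091).
Of the helicase subunits, *Mcm7* was 1.16-fold lower (edgeR adjusted p = 0.0392) and *Mcm2*, *Mcm3*, *Mcm4*, *Mcm5* and *Mcm6* did not pass, with log2 differences of -0.11 to 0.21. *Mcm6*, the most abundant of them, was at 54.8, 57.9 and 54.0 TMM CPM in number 1, at 54.9, 57.8 and 56.9 in number 2 and at 57.4, 54.0 and 57.3 in number 3. These levels overlapped fully. *Pcna*, the clamp that holds the polymerases on DNA, was at 42.2, 40.8 and 42.7 in number 1, at 36.6, 32.6 and 35.8 in number 2 and at 44.2, 41.98 and 43.2 in number 3. The libraries numbered 2 lay below the other 6, by -0.26 ± 0.07 against number 1 (edgeR adjusted p = 0.01448). *Cdc45* and *Gins2*, which complete the active helicase, did not pass. The summed level of the 11 licensing and origin genes was 226 to 229 in number 2 and 235 to 238 in number 1, an order that turned under scaling by total counts.

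The 4 enzymes of nucleotide supply included the largest difference of an S phase gene below number 1. *Tyms*, which makes thymidylate, was at 28.1, 27.6 and 28.0 TMM CPM in number 1, at 19.1, 18.9 and 20.0 in number 2 and at 23.9, 29.1 and 25.9 in number 3. The libraries numbered 2 were the lowest, by -0.53 ± 0.08 on the log2 scale against number 1 (SE, edgeR adjusted p = 0.0009606). *Tk1*, which salvages thymidine, was at 31.6, 31.95 and 33.3 in number 1, at 28.2, 23.5 and 25.3 in number 2 and at 34.6, 33.1 and 35.9 in number 3, a log2 fold change of -0.33 ± 0.08 (edgeR adjusted p = 0.009502). *Rrm1*, the large subunit of ribonucleotide reductase, was at 36.4, 36.0 and 36.4 in number 1, at 33.0, 33.0 and 32.1 in number 2 and at 40.5, 35.2 and 40.1 in number 3. Its levels in number 2 lay below all others, but the log2 difference from number 1 was -0.15 ± 0.07 and did not pass (edgeR adjusted p = 0.1232), nor did that of its small subunit *Rrm2*.

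Of the 3 inhibitors, 1 was higher and 1 lower. *Cdkn1b*, which holds cyclin E and *Cdk2* inactive in resting cells, was at 23.9, 26.2 and 24.6 TMM CPM in number 1, at 36.4, 31.7 and 32.5 in number 2 and at 27.0, 24.9 and 31.0 in number 3. The libraries numbered 2 were the highest, by 0.43 ± 0.09 against number 1 (SE, edgeR adjusted p = 0.006448). *Cdkn2c*, an inhibitor of *Cdk4* and *Cdk6*, was 1.34-fold lower in number 2 (edgeR adjusted p = 0.01441). *Cdkn1a* was at 206, 217 and 214 in number 1, at 176, 205 and 180 in number 2 and at 194, 221 and 197 in number 3. The library labelled calcitriol was the highest within each number, and the log2 difference of number 2 from number 1 was -0.18 ± 0.09 (edgeR adjusted p = 0.1332).

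**Figure D4:**
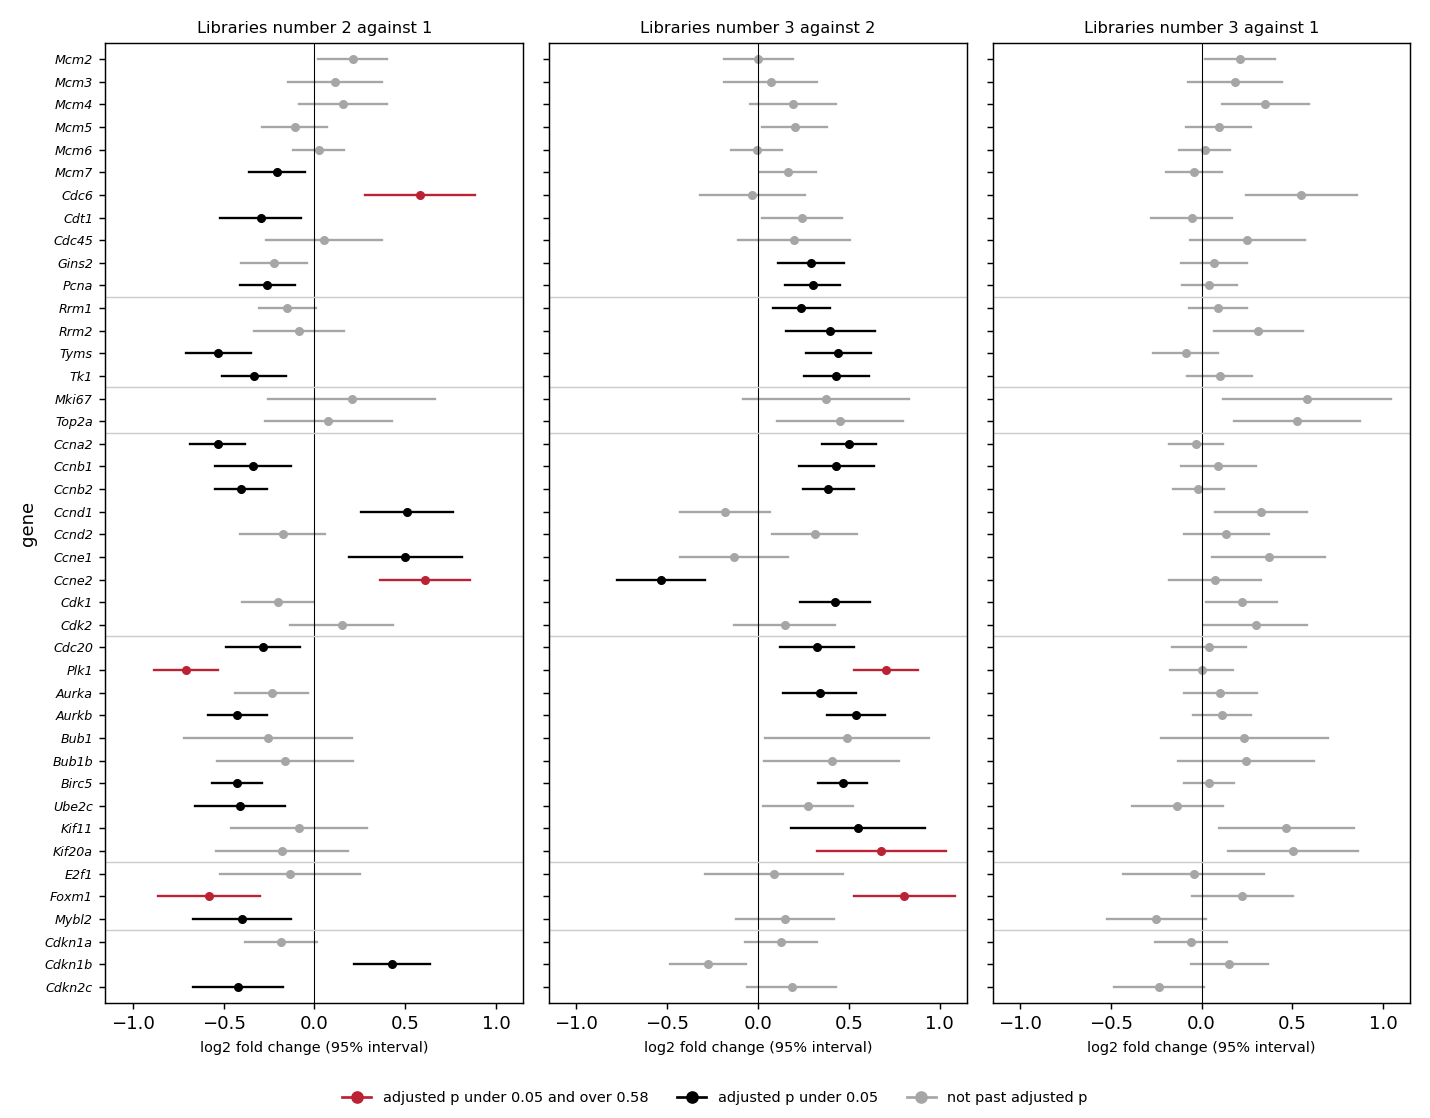
Log2 fold change of each member with its 95% interval from edgeR, for the libraries numbered 2 against 1 (left), 3 against 2 (middle) and 3 against 1 (right); red marks an adjusted p under 0.05 with an absolute log2 fold change over 0.58, black an adjusted p under 0.05 alone and grey neither. In number 2 against 1 there are 5 members above and 16 below 0 that pass, in number 3 against 2 there are 18 above and 1 below, and in number 3 against 1 there are 0.

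In number 3 against number 2, which shares the libraries numbered 2 with the comparison above, members were mostly higher in number 3. Called were 3 of 42 (7.14%), all higher, namely *Plk1*, *Foxm1* and *Kif20a*, beside 11.3% of all genes (4.53% higher). At an adjusted p under 0.05, 18 members were higher and 1, *Ccne2*, was lower (45.2% in all), beside 23.2% of all genes (11.2% higher and 12% lower). The median log2 fold change was 0.30 over the members and 0.01 over all genes. By role, 7 of 10 mitosis genes, 4 of 4 nucleotide supply genes, 4 of 9 cyclin and kinase genes, 2 of 11 licensing and origin genes, 1 of 3 transcription factors and 0 of 3 inhibitors were higher.
The log2 fold change of number 3 against number 2 was 0.81 ± 0.12 for *Foxm1* (edgeR adjusted p = 0.001328) and 0.71 ± 0.08 for *Plk1* (0.0001935), with no overlap of the levels given above. *Kif20a*, a kinesin of the midzone in dividing cells, was at 8.24, 8.68 and 8.30 TMM CPM in number 2 and at 16.3, 9.62 and 14.2 in vehicle 3, calcitriol 3 and calcitriol and ZK 3. Its log2 fold change was 0.68 ± 0.16 (SE, edgeR adjusted p = 0.01242), and calcitriol 3 lay within the 9.12 to 9.73 of number 1. *Ccne2* was lower by -0.53 ± 0.11 (edgeR adjusted p = 0.006019). Without calcitriol 3, 8 members were called, all higher, where 15.6% of all genes were, and 31 passed the adjusted p (29 higher and 2 lower), beside 45.7% of all genes. Without calcitriol and ZK 2, 12 passed the adjusted p, and with the close libraries of a number summed 1 was called and 2 passed.

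In number 3 against number 1, which shares libraries with both comparisons above, 0 members were called and 0 passed the adjusted p with edgeR, and 0% of all genes did either. At an unadjusted p under 0.05 there were 12 members, beside 26.3% of all genes, and DESeq2 and limma voom also called 0 members. The levels of number 3 and number 1 did not overlap for 8 members (7 higher and 1 lower), beside 18.4% of all genes (9.75% higher and 8.61% lower). Without calcitriol 3, 5 members were called, all higher, where 19.2% of all genes were, and 22 passed the adjusted p (19 higher and 3 lower), where 52.7% of all genes did. The 5 were *Mki67*, *Top2a*, *Kif11*, *Kif20a* and *Cdc6*, and the 3 lower ones were *Tyms*, *Ube2c* and *Cdkn2c*. The median of the members was then 0.14 and that of all genes 0.02.

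The libraries numbered 3 were not alike for these genes. *Top2a*, which untangles DNA before chromosomes part, was at 44.4, 46.6 and 43.8 TMM CPM in number 1, at 44.3, 51.9 and 45.9 in number 2 and at 72.7, 46.4 and 74.5 in vehicle 3, calcitriol 3 and calcitriol and ZK 3. *Mki67* was at 69.0, 35.2 and 68.2 in the same 3 libraries, and calcitriol 3 was the lowest of all 9. For both genes vehicle 3 and calcitriol and ZK 3 stood above the other 7 libraries. *Kif11*, the motor that pushes the spindle poles apart, was at 25.5, 14.9 and 24.6 in these 3 libraries and at 14.5 to 16.3 in the other 6.
Without calcitriol 3, the log2 fold change of number 3 against number 1 was 0.83 ± 0.05 for *Mki67* (edgeR adjusted p = 7.702e-07) and 0.71 ± 0.07 for *Top2a* (7.41e-06). With all libraries it was 0.58 ± 0.21 for *Mki67* (edgeR adjusted p = 0.1561) and 0.53 ± 0.16 for *Top2a* (0.1458). The smaller errors without calcitriol 3 come after leaving out the library in which both genes were low within number 3. Vehicle 3 and calcitriol and ZK 3 were the 2 highest libraries for 17 of 42 members (40.5%), beside 16.9% of all genes tested, and the 2 lowest for 0 members, beside 16.5% of all genes. The 17 were 4 licensing and origin genes (*Mcm3*, *Mcm4*, *Cdc45* and *Pcna*), 3 of nucleotide supply (*Rrm1*, *Rrm2* and *Tk1*), *Mki67* and *Top2a*, 4 cyclins or kinases (*Ccnb1*, *Ccnd2*, *Cdk1* and *Cdk2*) and 4 of mitosis (*Bub1*, *Bub1b*, *Kif11* and *Kif20a*). Both vehicle 3 and calcitriol and ZK 3 lay above calcitriol 3 for 30 of 42 members (71.4%), beside 46.9% of all genes tested. Instead 8 of 42 members were higher in calcitriol 3 than in either of the other libraries numbered 3, namely *Cdt1*, *Tyms*, *Plk1*, *Aurka*, *Ube2c*, *Mybl2*, *Cdkn1a* and *Cdkn2c*. The share of all genes with that reverse order was not counted, so these 8 are a description only.

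**Figure D5:**
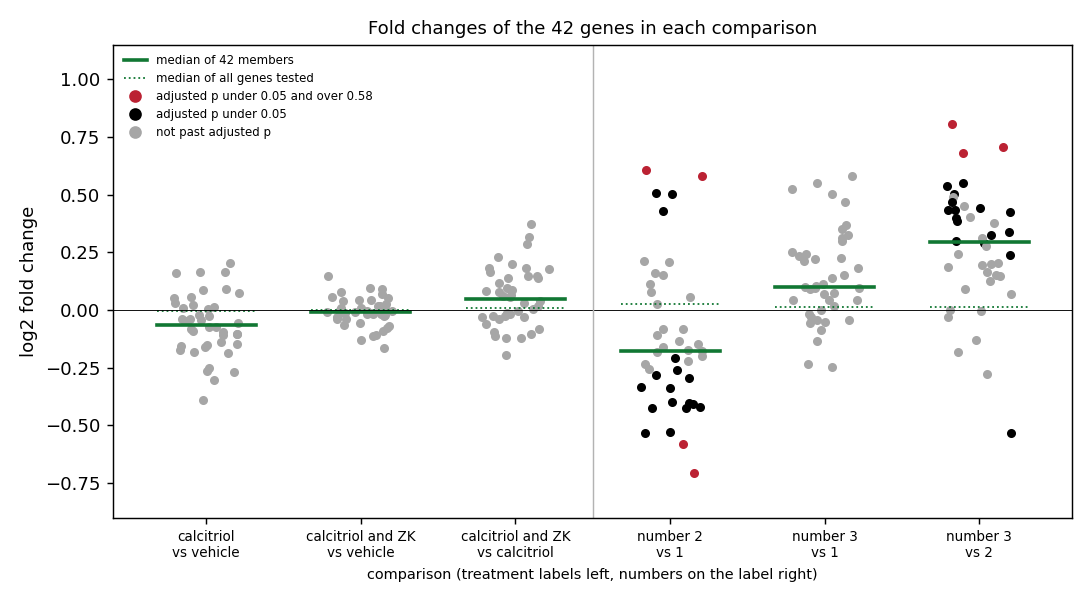
Log2 fold change of each of the 42 genes (points) in the 3 comparisons of treatment labels (left) and the 3 of numbers (right), with the median of the members (solid line) and of all genes tested (dotted line); red and black points pass an adjusted p under 0.05 with and without the minimum fold of 0.58, and sideways scatter carries no value. No point passes in the treatment comparisons, and the member medians of the number comparisons are -0.18, 0.10 and 0.30.

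Other genes of the same pathway, from wider lists, were described in the same way. Of 68 other genes of G2 phase and mitosis that were tested, 0 were higher and 21 lower in number 2 than in number 1 at an adjusted p under 0.05. Of all genes, 19.6% were higher and 18.7% lower. In number 3 against number 2, 34 of the 68 were higher and 0 lower, beside 11.2% and 12% of all genes. The median log2 fold change of the 68 in number 2 against number 1 was -0.20. Scaling by total counts raised the median of all genes by 0.20 in that comparison. The summed level of the 68 genes was 1362 to 1380 TMM CPM in number 1, 1190 to 1209 in number 2, and 1535, 1367 and 1520 in vehicle 3, calcitriol 3 and calcitriol and ZK 3. *Hjurp*, which places the centromeric histone, was at 66.6 to 71.7 in number 1, at 52.5 to 54.8 in number 2 and at 99.4, 66.9 and 94.5 in these 3 libraries. *Tubb4b*, a tubulin and the gene with the highest level of the list, was at 328 to 340 in number 1, at 306 to 321 in number 2 and at 303, 336 and 291 in these 3 libraries, so that vehicle 3 and calcitriol and ZK 3 were its lowest. Thus the order of the libraries differed between genes of the list.
Of 45 other S phase genes, 1 was higher and 10 lower in number 2 than in number 1 at an adjusted p under 0.05, where 19.6% of all genes were higher and 18.7% lower. In number 3 against number 2, 10 were higher and 1 lower, where 11.2% of all genes were higher and 12% lower. Of 47 other cell cycle regulators, 9 were higher and 9 lower in number 2 than in number 1, close to the shares of all genes. *Ccng2*, a cyclin of resting cells on that list, was at 77.6 to 81.3 TMM CPM in number 1, 164 to 180 in number 2 and 78.0 to 83.0 in number 3. *Cdk4*, a kinase of G1 phase, was at 125 to 126 in number 1, at 86.1 to 91.0 in number 2 and at 112, 131 and 105 in vehicle 3, calcitriol 3 and calcitriol and ZK 3. Of 22 p53 target genes 6 were higher and 6 lower in number 2 than in number 1 at the same threshold, beside the same 19.6% and 18.7% of all genes. By treatment label, 0 genes of these 4 lists passed in any of the 3 comparisons.

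Markers of cell types moved between the same libraries. *Tff2*, a mucosal peptide of the Brunner glands of the duodenum, was at 2.40 to 2.96 TMM CPM in number 1, at 4647 to 5701 in number 2 and at 112, 3.66 and 111 in vehicle 3, calcitriol 3 and calcitriol and ZK 3. The 10 Brunner gland markers summed to 41.3 to 43.5 TMM CPM in number 1, to 6344 to 7773 in number 2 and to 211, 42.5 and 205 in vehicle 3, calcitriol 3 and calcitriol and ZK 3, and all 10 were higher in number 2 than in number 1 at an adjusted p under 0.05. *Gkn2*, after *Tff2* the highest gene of that list, was at 793 to 970 in number 2 and at 0.16 to 0.35 in numbers 1 and 3. Unlike *Tff2*, it was thus near 0 in vehicle 3 and calcitriol and ZK 3 as well, so the list did not move as 1. Of 28 pancreatic acinar markers tested, 26 were higher in number 2, and their sum was 11520 to 11910 in number 1, 20430 to 63120 in number 2 and 11640 to 13790 in number 3. Outside number 2 that sum was mostly *Reg1* and *Zg16*, at 7751 to 8146 and 3523 to 3629 in number 1, the second of which is also on the goblet cell list, and the median log2 fold change of the acinar markers was 9.53 in number 2 and 6.09 in number 3, each against number 1. The 21 crypt stem cell markers summed to 815 to 828, to 1919 to 2218, and to 1198, 809 and 1154 in numbers 1, 2 and 3, but the sum in number 2 was mostly *Gkn3*, at 1167 to 1462. In number 2 against number 1, 3 of the 21 were higher and 5 lower at an adjusted p under 0.05. Over all genes those shares were 19.6% and 18.7%. The median log2 fold change of the 21 was -0.02, so the list had no single direction. *Olfm4*, a stem cell marker of the crypt, was at 244.5 to 249 in number 1, at 123 to 149 in number 2 and at 412, 237 and 390 in vehicle 3, calcitriol 3 and calcitriol and ZK 3. *Lgr5* ranged from 2.09 to 2.45 in number 2 and from 2.66 to 4.33 in the others.
The 14 Paneth cell markers tested summed to 4910 to 5137 in number 1, 3739 to 5174 in number 2, and 7339, 5145 and 7216 in these 3 libraries. The 23 mature enterocyte markers summed to 77270 to 78910, to 65680 to 72330, and to 57440, 79440 and 57020. Lymphocyte and germinal centre markers summed to 5320 to 5478, to 3121 to 3614, and to 4717, 5281 and 4706, mostly the plasma cell gene *Jchain* at 4830 to 4952, 2736 to 3173, and 4230, 4794 and 4236, and 8 of the 19 tested were higher and 9 lower in number 2 than in number 1. The 5 erythroid markers tested summed to 139 to 147 in number 1, to 44.4 to 47.8 in number 2, and to 21.5, 138 and 21.8 in vehicle 3, calcitriol 3 and calcitriol and ZK 3, and the 14 fibroblast markers to 342 to 351, to 486 to 512, and to 568, 355 and 541. At an adjusted p under 0.05 in number 2 against number 1, which 19.6% of all genes passed as higher and 18.7% as lower, 4 of 11 goblet cell markers were higher and 1 lower, 3 of 15 enteroendocrine markers were higher and 2 lower, 0 of 9 tuft cell and 0 of 11 smooth muscle markers were higher and 5 of each lower, and 5 of 12 endothelial markers were higher and 0 lower. The sums of the 42 members and of Paneth cell, fibroblast and endothelial markers were highest in vehicle 3 and calcitriol and ZK 3. The endothelial sums there were 151 and 152, and at most 138 elsewhere. Sums of enterocyte, goblet, tuft, smooth muscle and erythroid markers were lowest in these libraries, as was that of the other cell cycle regulators, at 1052 and 1062. The part of these cell types in the differences of the 42 members was not tested.

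The counting sets a limit for a few members. The strand setting of the counting was not given in the sources used here, and exons of *Gins2* overlap those of *Gse1* on the opposite strand over 67.3% of their length, those of *Kif20a* overlap *Cdc23* over 29.3%, those of *Ccnd1* overlap *LTO1* over 23.4%, those of *Ube2c* overlap *Tnnc2* over 22.8% and those of *Ccne2* overlap *Ints8* over 17.4%, so these levels are uncertain. Pseudogenes of *Ccnb2* and *Pcna* held 15 and 24 reads over all libraries.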

How the data were processed

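Whole duodenum of 9 mice was sequenced (poly-A selected, stranded libraries, single reads). The authors used bcl2fastq 2.17.1.14 for base calls, discarded dimers of adapters, mapped reads on mm10 with Tophat and Bowtie2, and counted uniquely mapped reads per gene with HTSeq, and they deposited these raw counts in 1 table. The strand setting and annotation release are not given in the sources used here.

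The 42 genes and the other lists were chosen with earlier results of these data known. Symbols came from the GENCODE annotation of mm10, which gave one to 48349 of 48709 gene IDs. The 15002 genes whose reads summed to more than 100 entered the quasi-likelihood test of edgeR 4.0.16 (R 4.3.3) with TMM scaling, with all 9 libraries in 1 fit by treatment label or by number, and Benjamini-Hochberg adjustment over all genes tested. Alternatives were DESeq2 1.42.0, its size factors, limma voom (limma 3.58.1), other filters, no minimum fold, fits of 6 libraries, treatment label as a covariate, acinar genes left out of library sizes, close libraries summed, each library left out, and the number as a replicate block. A block fitted to 6 libraries was chosen after seeing the data. The test was checked on simulated counts.

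Same-numbered libraries deviated together in 3 of 3 pairs between vehicle and calcitriol and ZK (r 0.892 to 0.948, from the data) and in 2 of 3 pairs in the other 2 comparisons. Library values are given in full for members called in a comparison and for the 2 highest members of each role. Those of other members, such as Tyms, Kif11 and Ccnd1, and of other listed genes not among the 2 highest of their list, were chosen after their values were seen. Total counts of 22561400 to 41207455 set the precision, and p-values cover only the spread between these libraries.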

Additional observations from a re-analysis of the deposited data

How the results depend on the processing

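By treatment label, 0 members were called under every alternative run, with the number as a replicate block as well, and the block changed no call. The replicate block fitted to only the 6 libraries labelled vehicle or calcitriol and ZK, an alternative chosen after seeing the data, also called 0 members. In number 2 against number 1, the 4 calls became 21 with no minimum fold and 1 with close libraries of a number summed, and the 21 members past the adjusted p became 5 when summed. Leaving out 1 library gave 2 to 4 calls and 14 to 28 members past the adjusted p. In number 3 against number 2, the 3 calls became 19 with no minimum fold and 1 when summed, and the 19 past the adjusted p became 2 when summed, while leaving out 1 library gave 2 to 8 and 12 to 31. In number 3 against number 1, 1 member passed the adjusted p with no filter on low counts, and leaving out 1 library gave 0 to 5 calls and 0 to 22 past the adjusted p, with 5 and 22 without calcitriol 3 and 0 otherwise. Fewer libraries enter the summed fits. The cause of the other changes was not tested.

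Scaling by total counts moved the log2 ratios of the summed levels. In number 2 against number 1 these became 0.14 from -0.06 for licensing and origin genes, -0.07 from -0.27 for nucleotide supply, 0.33 from 0.14 for Mki67 and Top2a, 0.046 from -0.15 for cyclins and kinases, -0.15 from -0.35 for mitosis, -0.24 from -0.44 for transcription factors and 0.078 from -0.12 for inhibitors. In number 3 against number 1 they became 0.29 from 0.08, 0.31 from 0.10, 0.72 from 0.50, 0.33 from 0.12, 0.32 from 0.10, 0.28 from 0.06 and 0.17 from -0.04 in the same order. With the size factors of DESeq2 the ratio of licensing and origin genes was -0.071 in number 2 against number 1. Of 80 values of the 4 members called in number 2 against number 1, over 20 alternatives, 20 were no longer called, 12 of Foxm1, 5 of Cdc6, 3 of Ccne2 and 0 of Plk1. Of 60 values of the 3 called in number 3 against number 2, 4 were no longer called, 3 of Kif20a and 1 of Foxm1.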
